A study of Homo sapiens with 6 samples.

Results

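The AP-1 and EGR immediate early transcription factors were followed in A673 cells after siRNA against FLI1. The members were chosen by name, with earlier results of these data known, as FOS, FOSB, FOSL1, FOSL2, JUN, JUNB, JUND, EGR1, EGR2 and EGR3, and were taken from the count table by gene symbol. All 10 had a row, of 27234 rows in all. The siFLI1 group is 3 libraries of cells transfected with the siRNA-FLI1 oligonucleotide, and the siControl group is 3 libraries of cells given the scrambled control siRNA (si-con). RNA was taken 48 h after transfection. Cells of both groups were grown in the same medium with 10% fetal bovine serum and carry the EWS-FLI1 fusion, which links EWSR1 to the DNA-binding domain of the ETS factor FLI1. A673 is 1 established Ewing sarcoma line, which also carries an activating BRAF mutation, so the values describe 1 cell line and 1 time. Whether the libraries of a group stem from separate cultures is not stated in the labels, so a p-value here measures the spread between libraries, which may be technical. Values of a group are listed in the order of replicates 1, 2 and 3.

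AP-1 is a dimer of basic leucine zipper proteins. JUN proteins can pair with each other or with FOS proteins, while FOS proteins need a JUN partner, and the dimers bind the sequence TGACTCA and its relatives. EGR proteins are zinc finger factors that bind GC-rich sites. Many of these genes are switched on within minutes of a growth factor or stress signal, through ERK, JNK and p38 kinases that act on ternary complex factors of the ETS family, on SRF and on CREB at the promoters. EGR2 is also known as an Ewing sarcoma susceptibility gene and as a target of EWS-FLI1.

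The promoters of EGR1, FOS and JUND are shown because the letters of these regulatory sites can be read in them, and because these genes carry results given below. Sequences are from RefSeq (GRCh38.p14) and run 5′ to 3′ on the gene's strand, from 250 bases before the start of transcription to 50 after it. Capitals mark the CArG box (the SRF site), GGAA on either strand lying within 12 bases of a CArG box and outside it, and the core TGACGT of the CREB/ATF site on either strand.
EGR1: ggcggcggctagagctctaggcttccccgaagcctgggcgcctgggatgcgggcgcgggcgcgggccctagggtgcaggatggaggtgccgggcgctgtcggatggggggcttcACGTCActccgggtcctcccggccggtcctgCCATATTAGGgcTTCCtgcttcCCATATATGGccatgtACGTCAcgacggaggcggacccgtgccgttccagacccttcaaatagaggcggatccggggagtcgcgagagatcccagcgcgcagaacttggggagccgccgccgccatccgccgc
FOS: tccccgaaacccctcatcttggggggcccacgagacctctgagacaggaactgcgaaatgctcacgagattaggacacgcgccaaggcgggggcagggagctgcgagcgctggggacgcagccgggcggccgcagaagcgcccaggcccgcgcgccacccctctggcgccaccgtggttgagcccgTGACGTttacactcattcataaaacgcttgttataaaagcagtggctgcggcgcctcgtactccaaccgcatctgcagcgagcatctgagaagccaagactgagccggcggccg
JUND: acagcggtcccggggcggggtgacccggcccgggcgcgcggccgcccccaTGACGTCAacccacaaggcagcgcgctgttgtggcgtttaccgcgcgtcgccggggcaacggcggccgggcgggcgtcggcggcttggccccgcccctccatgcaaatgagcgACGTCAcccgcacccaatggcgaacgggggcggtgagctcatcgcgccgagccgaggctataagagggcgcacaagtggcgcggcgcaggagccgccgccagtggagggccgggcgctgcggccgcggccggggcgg
The EGR1 window (chr5:138465229-138465528, plus strand) held 2 CArG boxes with a GGAA on the minus strand between them, which reads TTCC here, and 2 TGACGT cores. Of 35116 promoters of this length, 1.29% held a CArG box, 0.29% held one with GGAA within 12 bases, and 7.98% held TGACGT. The FOS window (chr14:75278578-75278877, plus strand) held TGACGT once. The JUND window (chr19:18281573-18281872, minus strand) held the full palindrome TGACGTCA, which contains the core on both strands and is found in 1.85% of promoters, and 1 further core. Of the 8 members with a promoter in this table, FOS, FOSB, FOSL2, JUND and EGR1 held TGACGT, and FOSL2 alone held TGACTCA, found in 4.95% of promoters. None of the 8 held CCGGAAG, the common ETS site (10.3% of promoters), GGAAGGAA (3.67%) or the EGR site GCGTGGGCG (0.795%), all searched on both strands. A match is a description of letters, and no match says only that the letters are not in this window. The EGR2 window of this table lies upstream of the transcript counted here and is not shown.

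Libraries held 417145 to 1893606 counts in siFLI1 and 1248395 to 1790051 in siControl, and siFLI1 replicate 3 was the shallowest. In this library the counts made up 10.1% of the header's total, where the other 5 had 41.2% to 61%, and it stood apart on the first principal component. The siControl replicate 1 library stood apart on the third, at −42.7 against −11.8 to 30.7, and had a scaling factor of 1.23 against 0.936 to 0.987. The target FLI1 averaged 28.5 ± 12.4 CPM over the siFLI1 libraries and 64.8 ± 3.71 CPM over the siControl libraries (SD, n = 3 each). CPM are counts relative to the library's total over the tested genes, scaled by trimmed mean of M values. FLI1 did not pass the test over all genes (edgeR adjusted p = 0.17). Genes used to recognise Ewing sarcoma were present in both groups. The surface protein gene CD99 ranged from 74.4 to 97.0 CPM in siFLI1 and from 70.9 to 130 CPM in siControl. The homeobox gene NKX2-2 ranged from 10.7 to 21.9 CPM in siFLI1 and from 19.9 to 46.9 CPM in siControl, and neither gene passed the test. The nuclear receptor gene NR0B1, a known target of EWS-FLI1, fell to 53.6 to 93.7 CPM in siFLI1, against 172 to 286 CPM in siControl (log2 fold change −1.43 ± 0.30, SE; edgeR adjusted p = 0.025). The surface protein gene STEAP1 ranged from 317 to 474 CPM in siFLI1 and from 587 to 801 CPM in siControl, without overlap, and did not pass (−0.87 ± 0.27, SE; edgeR adjusted p = 0.184).

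No AP-1 or EGR member passed the test. In edgeR's quasi-likelihood test with Benjamini-Hochberg adjustment over 9420 genes, 0 of the 7 members with enough counts had an adjusted p below 0.05, against 1.45% of all tested genes. DESeq2 and limma-voom also called 0. Before adjustment, 3 members (JUND, EGR1 and EGR2) had a p below 0.05 and all 3 were lower in siFLI1, where 10.8% of all genes were below this p in either direction and 4.13% were lower. The libraries of the 2 groups did not overlap for FOS, which was higher in siFLI1, and for EGR1 and EGR2, which were lower. That is 3 of 7 members, where 16.6% of all tested genes had no overlap, 8.93% higher and 7.71% lower. The median log2 fold change of the 7 was −0.51, with 5 below 0, and that of all tested genes was 0.01. With 3 against 3 libraries an exact permutation test of 1 gene cannot give a p below 0.1. In bulk RNA, fewer cells that express a gene and less of its RNA per cell cannot be told apart.

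**Figure D1:**
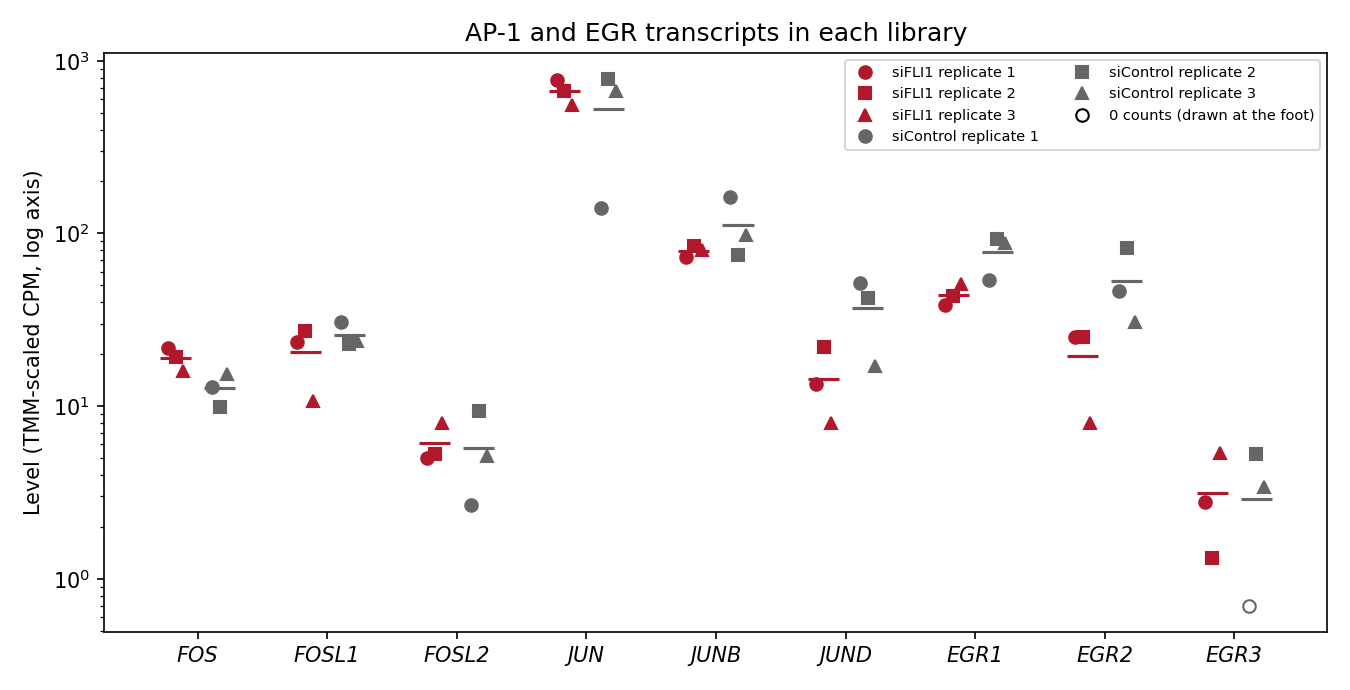
Level of 9 members in each library, as TMM-scaled CPM (log axis), with siFLI1 in red to the left of siControl in grey. Points are libraries and bars the means of 3. EGR1 lay at 38.6 to 50.9 CPM in siFLI1 and 53.9 to 93.1 CPM in siControl, and JUN in siControl replicate 1 lay at 141 CPM. FOSB, with 0 counts, is not drawn.

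EGR1, the zinc finger factor induced by mitogens in most cells (chromosome 5, 138465492 to 138469315, plus strand of hg38), had 38.6, 43.2 and 50.9 CPM in the siFLI1 libraries. It was at 53.9, 93.1 and 88 CPM in the siControl libraries. Every siFLI1 library lay below every siControl library, with the narrowest gap between siFLI1 replicate 3 and siControl replicate 1, the libraries that stood apart. The siFLI1 mean was 56.4% of the siControl mean, and the fitted log2 fold change was −0.85 ± 0.32 (SE; 95% interval −1.52 to −0.17; edgeR adjusted p = 0.302). Without both of those libraries it was −1.16 ± 0.30, and still did not pass (edgeR adjusted p = 0.0743). This was the lowest adjusted p for EGR1 over the 16 alternatives, and the highest was 0.617.

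EGR2, the factor best known from Schwann cell myelination and hindbrain patterning (chromosome 10, 62811996 to 62816380, minus strand), was at 25.2, 25.2 and 8.03 CPM in the siFLI1 libraries, the last from 3 counts. It was at 46.3, 82.6 and 30.8 CPM in the siControl libraries. The groups did not overlap, and each group spanned a wide range, with the highest library 3.14-fold over the lowest in siFLI1 and 2.68-fold in siControl. The fitted log2 fold change was −1.32 ± 0.45 (SE; 95% interval −2.27 to −0.36; edgeR adjusted p = 0.239), the smallest p among the members. With no filter on low counts EGR2 was called lower (−1.36 ± 0.40, edgeR adjusted p = 0.0377), in a fit that called 1.96% of 18819 genes, 0.329% of them lower. Over the 16 alternatives its adjusted p ran from 0.0377 to 0.63, the last without siControl replicate 2, where the log2 fold change was −0.87.

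EGR3, a relative of EGR1 known from muscle spindle development (chromosome 8), was near the limit of detection. It had 5, 2 and 2 counts in the siFLI1 libraries, and 0, 9 and 4 counts in the siControl libraries. It was left out of the test by the count filter. Pooled over libraries its level was 0.894-fold that of siControl, with a 95% counting interval of 0.337 to 2.26. Summed over the 3 EGR genes, the level was 66.5, 69.8 and 64.3 CPM in the siFLI1 libraries, and 100.2, 181 and 122 CPM in the siControl libraries, nearly all of it from EGR1 and EGR2.

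JUN, the AP-1 subunit that JNK phosphorylates and that can drive its own promoter (chromosome 1, 58780791 to 58784113, minus strand), was not shown to differ. It was at 778, 666 and 552 CPM in the siFLI1 libraries. It was at 141, 781 and 665 CPM in the siControl libraries. The groups overlapped, and siControl replicate 1 lay far below each of the other 5 libraries. Its log2 fold change came to 0.34 ± 0.46 (SE; 95% interval −0.66 to 1.33; edgeR adjusted p = 0.867). Without siControl replicate 1 it turned to −0.15 ± 0.23 (edgeR adjusted p = 0.874), and over the 16 alternatives the adjusted p ran from 0.75 to 0.986.

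The low JUN level of siControl replicate 1 was not shared by the other JUN genes. JUN in that library was 0.194-fold the mean of siControl replicates 2 and 3. Genes were ranked by this ratio with 1 CPM added to both levels. Of 8339 tested genes with a mean of at least 10 CPM, 58 were as low or lower, JUN included. JUNB in that library was 1.88-fold and JUND 1.74-fold the mean of the other siControl libraries. The library also had the highest scaling factor, and the part of that in these values was not tested.

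JUNB, a weaker activator than JUN that can hold JUN in check (chromosome 19, 12791496 to 12793311, plus strand), was at 72.7, 84.4 and 80.3 CPM in the siFLI1 libraries, against 163, 75.0 and 98.3 CPM in the siControl libraries. The groups overlapped, and siControl replicate 1 was the highest of the 6. Its log2 fold change was −0.51 ± 0.31 (SE; 95% interval −1.18 to 0.16; edgeR adjusted p = 0.624), and −0.17 without siControl replicate 1.

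JUND, which many resting cells express steadily (chromosome 19, 18279694 to 18281656, minus strand), was at 13.4, 21.9 and 8.03 CPM in the siFLI1 libraries, the last from 3 counts. It was at 51.7, 42.2 and 17.1 CPM in the siControl libraries. The groups overlapped by 1 library each, siFLI1 replicate 2 lying above siControl replicate 3. The siFLI1 mean of 14.5 ± 7.00 CPM was 39.1% of the siControl mean of 37.0 ± 17.9 CPM (SD, n = 3 each). The fitted log2 fold change was −1.26 ± 0.48 (SE; 95% interval −2.30 to −0.23; edgeR adjusted p = 0.33), and ran from −1.67 to −0.79 over the 16 alternatives without passing in any.

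**Figure D2:**
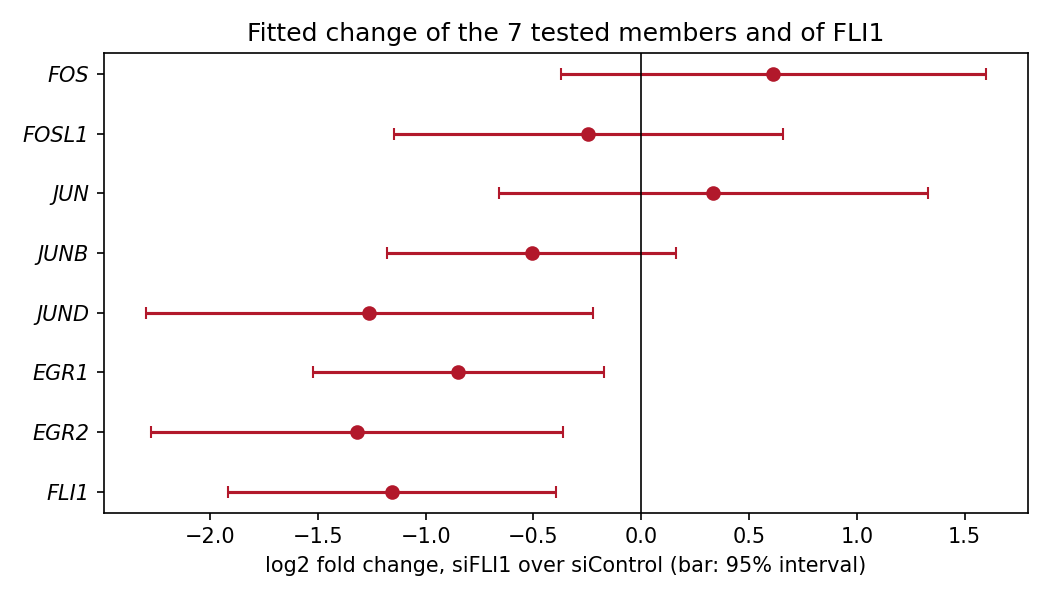
Log2 fold change of siFLI1 over siControl for the 7 tested members and FLI1, as points with 95% intervals for each gene alone. Intervals of JUND, EGR1, EGR2 and FLI1 lie below 0, at −1.26, −0.85, −1.32 and −1.16, and those of FOS, FOSL1, JUN and JUNB span 0.

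FOS, the short-lived prototype of its family (chromosome 14, 75278778 to 75282234, plus strand), was at 21.8, 19.3 and 16.1 CPM in the siFLI1 libraries, the last from 6 counts. It was at 12.9, 9.96 and 15.4 CPM in the siControl libraries. Every siFLI1 library lay above every siControl library, by a narrow margin between siFLI1 replicate 3 and siControl replicate 3. The fitted log2 fold change was 0.61 ± 0.46 (SE; 95% interval −0.37 to 1.60; edgeR adjusted p = 0.707), and ran from 0.46 to 0.76 over the 16 alternatives without passing in any.

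FOSL1, which encodes FRA-1 and lacks the strong activation domain of FOS (chromosome 11, 65892136 to 65900526, minus strand), was at 23.5, 27.2 and 10.7 CPM in the siFLI1 libraries, the last from 4 counts. It was at 30.7, 22.8 and 23.9 CPM in the siControl libraries. The groups overlapped, and siFLI1 replicate 3 was the lowest of the 6. The fitted log2 fold change was −0.24 ± 0.42 (SE; 95% interval −1.15 to 0.66; edgeR adjusted p = 0.895), −0.03 without siFLI1 replicate 3 and 0.11 without that library and siControl replicate 1.

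FOSL2, which encodes FRA-2 (chromosome 2), had 9, 8 and 3 counts in the siFLI1 libraries, and 5, 16 and 6 counts in the siControl libraries. It was left out of the test by the count filter, and its row overlaps FLJ31356 on the other strand, which had 4 counts in all. Pooled over libraries its level was 0.956-fold that of siControl, with a 95% counting interval of 0.509 to 1.77. FOSB (chromosome 19), best known from brain, had 0 counts in all 6 libraries, which allows a level of up to 0.357 CPM over the 6 (3 counts). These intervals and this limit cover counting error only.

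**Figure D3:**
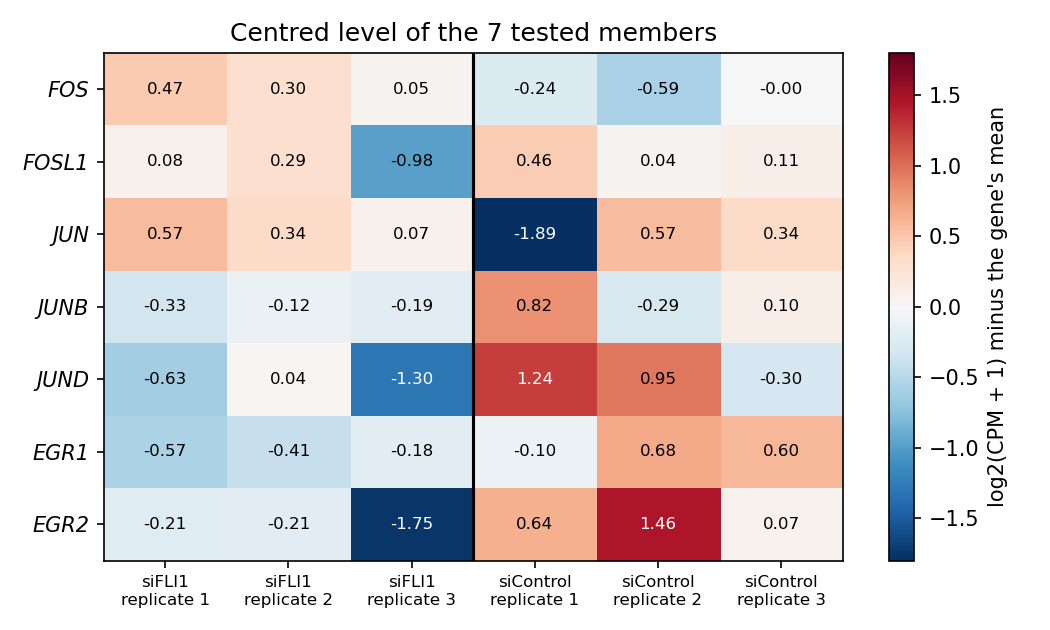
Level of the 7 tested members in each library as log2(CPM + 1) minus the gene's mean over the 6 libraries, with siFLI1 left of the line and siControl right of it. JUN in siControl replicate 1 was at −1.89 beside JUNB at 0.82 and JUND at 1.24, and EGR2 in siFLI1 replicate 3 was at −1.75.

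Ratios between members of 1 family within a library do not depend on the scaling factors. They were taken on counts with 0.5 added to each. Of the 4 pairs with enough counts, FOS over FOSL1 was the only one whose groups did not overlap. Its log2 ratio was −0.11, −0.49 and 0.53 in the siFLI1 libraries, the last from 6 FOS and 4 FOSL1 counts. It was −1.23, −1.17 and −0.62 in the siControl libraries. The means differed by 0.99, with a two-sided exact permutation p of 0.1, the smallest the design allows, and 0.4 after Benjamini-Hochberg adjustment over the 4 pairs. The difference ran from 0.71 to 1.22 when each library was left out in turn. JUN over JUNB differed by 1.08 and JUN over JUND by 1.91, with exact permutation p of 0.4 and 0.2, and JUNB over JUND by 0.83 (exact permutation p = 0.3). Without siControl replicate 1, JUN over JUNB was at −0.014 and JUN over JUND at 0.81.

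Genes whose pattern over the 6 libraries was most like that of EGR2, the member with the smallest p, were SRD5A3, CDC25A, SOX11, CCDC14 and ADRB1. Likeness was the root mean square difference of centred log2(CPM + 1) over 8332 genes with a mean of at least 10 CPM, and it was 0.23 for SRD5A3, a reductase of dolichol synthesis, and 0.33 for ADRB1, the beta-1 adrenergic receptor. SRD5A3 was at 26.3, 39.2 and 10.7 CPM in the siFLI1 libraries, and 64.1, 87.3 and 47.9 CPM in the siControl libraries. None of the 5 passed the test (edgeR adjusted p from 0.178 to 0.709), and the libraries are the same for each gene. SRD5A3 was called lower with no filter on low counts (edgeR adjusted p = 0.0283).

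No tested gene among the listed partners and regulators of the members passed, where 1.45% of all tested genes did. Before adjustment, 10.8% of all tested genes had a p below 0.05. In lists this short, the counts below of genes that passed or had an unadjusted p below 0.05 are near the shares over all genes. Of 19 other AP-1 type leucine zipper factors in the table, 13 were tested and 0 passed in edgeR, and before adjustment 1 had a p below 0.05. The list's median log2 fold change was −0.36. Of 4 tested genes of SRF, its ternary complex partners and MRTF factors 0 passed and 0 had an unadjusted p below 0.05, with ELK3, an ETS family partner of SRF, at 0.53 ± 0.37 on the log2 scale (SE; edgeR adjusted p = 0.673). NAB1 and NAB2, corepressors that bind EGR proteins, were the 2 tested of their list of 3, and 0 passed, also before adjustment. Their groups did not overlap, by narrow margins and in opposite directions, where 16.6% of all tested genes had no overlap. NAB1 was at 44.7, 65.1 and 42.8 CPM in the siFLI1 libraries and 35.0, 42.2 and 37.6 CPM in the siControl libraries (edgeR adjusted p = 0.702). NAB2 was at 104.6, 104.3 and 29.5 CPM in the siFLI1 libraries and 106.1, 104.8 and 200.9 CPM in the siControl libraries (edgeR adjusted p = 0.577). Of 11 tested JNK, ERK and p38 pathway kinases 0 passed, with 1 higher at an unadjusted p below 0.05, RPS6KA3, an ERK-activated kinase, at 0.82 ± 0.37 (SE; edgeR adjusted p = 0.442). Of 3 tested ubiquitin ligase genes 0 passed and 0 were below an unadjusted p of 0.05, with KDM2B at −0.83 ± 0.60 (SE; edgeR adjusted p = 0.694). DESeq2 and limma-voom called 0 in each of these lists.

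Other immediate early genes moved in part. Of 29 tested, 5 rose and 0 fell in edgeR, against 1.34% and 0.117% of all tested genes, while the list's median log2 fold change was −0.06. The 5 were PHLDA1, ZFP36L1, ZFP36L2, CYR61 and CTGF. PHLDA1, a growth-factor-induced pleckstrin-like protein, was at 223, 290 and 319 CPM in the siFLI1 libraries and 53.3, 69.1 and 51.3 CPM in the siControl libraries. Its log2 fold change was 2.25 ± 0.27 (SE; edgeR adjusted p = 0.000288). ZFP36L1 and ZFP36L2, which bind AU-rich RNA and hasten its decay, rose as well. ZFP36L1 averaged 157 CPM in siFLI1 and 42.4 CPM in siControl, and ZFP36L2 averaged 94.3 CPM in siFLI1 and 23.6 CPM in siControl. CYR61 and CTGF, matricellular proteins also induced by YAP, rose by 1.85 ± 0.33 and 1.30 ± 0.25. CYR61 was not called without siControl replicate 2 (edgeR adjusted p = 0.102) or siControl replicate 3 (0.0676). CTGF was not called with the replicate block, nor without siFLI1 replicate 1, siFLI1 replicate 2 or any 1 of the siControl libraries. Leaving out siControl replicate 2 or siControl replicate 3 left 3 of the list called. Groups did not overlap for 15 of the 29, with 9 higher and 6 lower, against 8.93% and 7.71% of all tested genes. The uncalled genes lay on both sides. IER3 averaged 892 CPM in siFLI1 and 570 CPM in siControl, and IER5L averaged 21.1 CPM in siFLI1 and 8.45 CPM in siControl, both without overlap. IER2 was at 15.7, 15.9 and 10.7 CPM in the siFLI1 libraries and 23.2, 21.1 and 23.1 CPM in the siControl libraries, and MYC at 182, 176 and 179 CPM in the siFLI1 libraries and 310, 241 and 185 CPM in the siControl libraries. These 4 genes are named after their values were seen.

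**Figure D4:**
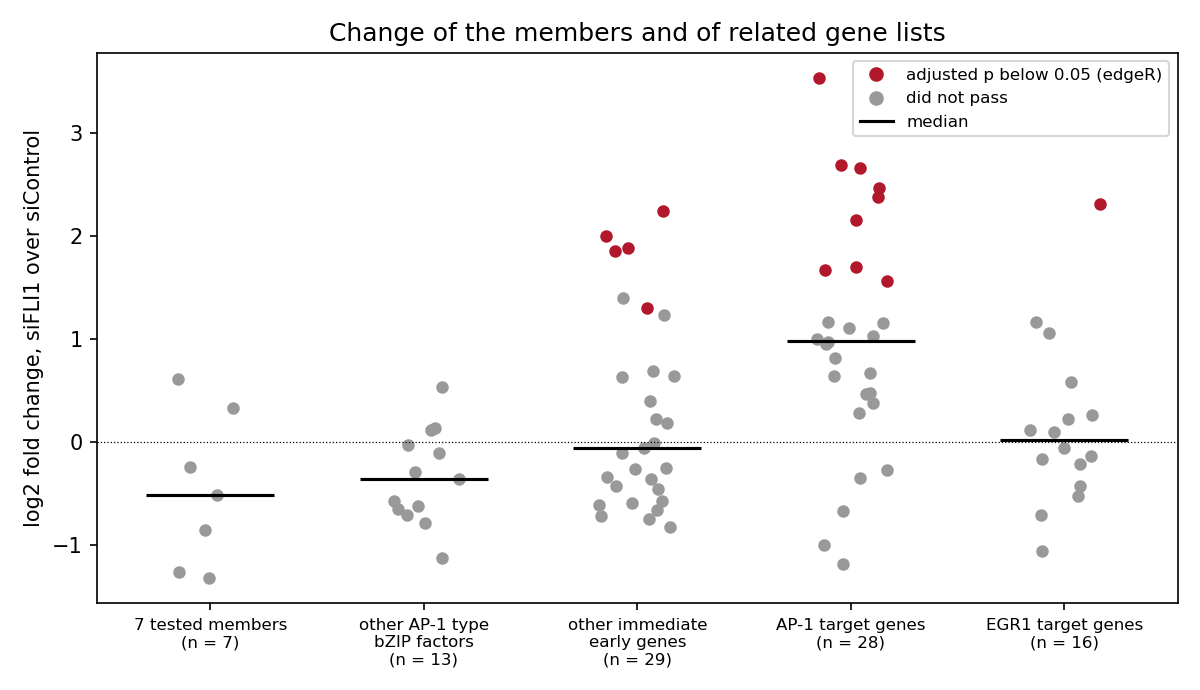
Log2 fold change of siFLI1 over siControl for the tested genes of 5 lists, with the median of each list as a bar and genes that passed edgeR's test in red. No member was red, with a median of −0.51, and 9 of 28 AP-1 target genes were red, with a median of 0.99.

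A part of the genes listed as AP-1 targets rose. Of 28 tested, 9 rose and 0 fell in edgeR, against 1.34% and 0.117% of all tested genes. With no filter on low counts, and without siFLI1 replicate 3 and siControl replicate 1, 1 gene of the list was called lower in each, the cyclin D1 gene CCND1, named after its values were seen. The median log2 fold change of the 28 was 0.99, and that of all tested genes 0.01. Among those that rose were EREG, PLAU, LOXL2, CD44, TFPI2, IL6, S100A2 and AREG. EREG, an EGF receptor ligand, was at 339, 462 and 436 CPM in the siFLI1 libraries and 44.7, 25.8 and 35.9 CPM in the siControl libraries, with a log2 fold change of 3.53 ± 0.30 (edgeR adjusted p = 1.44e-05). PLAU, the urokinase plasminogen activator, was at 541, 626 and 702 CPM in the siFLI1 libraries and 123, 114 and 100 CPM in the siControl libraries, a log2 fold change of 2.47 ± 0.26. LOXL2, a collagen crosslinking enzyme, rose by 2.38 ± 0.30 and the hyaluronan receptor CD44 by 2.16 ± 0.28. The collagenase MMP1, a classical AP-1 target named after its values were seen, did not move with them. It was at 7205, 7826 and 6078 CPM in the siFLI1 libraries and 11058, 11763 and 10781 CPM in the siControl libraries, without overlap, a log2 fold change of −0.67 ± 0.35 (edgeR adjusted p = 0.544). Leaving out siControl replicate 2 or siControl replicate 3 left 5 of the list called. The list was drawn up with earlier results of these data known, and several of its genes also answer to other factors, so its count is no measure of AP-1 activity.

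Of 16 tested genes listed as EGR1 targets, 1 rose and 0 fell in edgeR, against 1.34% and 0.117% of all tested genes, and the median log2 fold change was 0.02. Before adjustment 3 had a p below 0.05, all higher, where 10.8% of all tested genes were below this p in either direction. Of the 9420 tested genes, 624 were higher at this p. Groups did not overlap for 6 of the 16, with 4 higher and 2 lower, against 8.93% and 7.71% of all tested genes. The 1 was F3, tissue factor, which starts coagulation, at 66.0, 145 and 77.6 CPM in the siFLI1 libraries and 27.5, 25.8 and 3.42 CPM in the siControl libraries. Its log2 fold change was 2.31 ± 0.52 (SE; edgeR adjusted p = 0.0474). Of the 6 fits that left out 1 library, that without siFLI1 replicate 3 called it (edgeR adjusted p = 0.0373) and the other 5 did not, with the highest adjusted p of 0.312 without siFLI1 replicate 2. Over the 16 alternatives F3 was called in 7. It was also not called under total counts (edgeR adjusted p = 0.073), upper quartile scaling (0.0542) and the filter of at least 5 CPM in 3 libraries (0.0647), nor in limma-voom (adjusted p = 0.0536).

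Of 6 tested fibroblast and pericyte markers 2 rose, the collagen genes COL1A1 and COL1A2, and 0 fell, against 1.34% and 0.117% of all tested genes. COL1A1 averaged 465 CPM in siFLI1 and 184 CPM in siControl, and COL1A2 averaged 1246 CPM in siFLI1 and 328 CPM in siControl. The summed level of the 10 listed was 1976 to 2253 CPM in siFLI1 and 827 to 1062 CPM in siControl, most of it in siFLI1 from these collagens, with DPT at 0. The median log2 fold change of the 6 was 1.17, and only THY1 was below 0. THY1 averaged 269 CPM in siFLI1 and 335 CPM in siControl and did not pass (edgeR adjusted p = 0.82). PDGFRB, at 39.1, 45.2 and 69.6 CPM after siFLI1 against 25.3, 7.03 and 13.7 CPM in siControl, was higher without overlap. It did not pass (log2 fold change 1.68, edgeR adjusted p = 0.117), nor did RGS5 (0.999) and PDPN (0.494). PDGFRA, left out by the count filter, averaged 0.594 CPM in siFLI1 and 4.77 CPM in siControl. Of its siControl counts, 25 came from replicate 1, and 0 and 1 from replicates 2 and 3. Of 10 lymphoid and myeloid markers 1 was tested, CD68, and 0 passed (0 at an unadjusted p below 0.05 in edgeR). Their summed level was 78.3 to 96.4 CPM in siFLI1 and 50.1 to 62.4 CPM in siControl, with CD3E and NKG7 at 0. CD68 was at 67.1, 83.0 and 37.5 CPM in the siFLI1 libraries and 49.0, 43.9 and 54.7 CPM in the siControl libraries, with overlap. PTPRC had 0, 0 and 16 counts in the siFLI1 libraries, the last at 42.8 CPM, and 0, 0 and 6 counts in the siControl libraries. The 10 epithelial and endothelial markers summed to 3.91 to 13.4 CPM in siFLI1 and 2.93 to 17.1 CPM in siControl, with KRT5, KRT14, KRT19 and TEK at 0. The part of these genes in the values above was not tested.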

How the data were processed

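Libraries of 3′ ends of polyadenylated RNA were made by a bulk form of MARS-seq, per the labels' protocols. The authors deposited raw counts per gene over exons, for 1 RefSeq transcript per gene. Per the submitters' processing notes, HISAT 0.1.5, HOMER, bcl2fastq and hg38 are named, in roles not given there. Collapse of molecular barcodes and use of strand are not given in the sources used here.

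Within each group every pair of libraries differed beyond sampling noise (smallest chi-square over its degrees of freedom 7.48), so all 6 were kept. Genes passed edgeR's filterByExpr (minimum count 10, total 15), which left 9420, and were tested with edgeR 4.0.16 in R 4.3.3 (TMM, glmQLFit robust, glmQLFTest, two-sided, Benjamini-Hochberg, threshold 0.05). Standard errors come from the F statistic. Exact permutation tests used scipy 1.17.1. In counts simulated at the depths of these libraries, the test called 12.2% of genes set to 2-fold and 6.38% of those set to 0.5-fold. It called 68% of genes set to 4-fold and 47.7% of those set to 0.25-fold. A gene that did not pass may therefore still differ. Alternatives were other scalings, filters, DESeq2 1.42.0, limma 3.58.1, the replicate block, libraries left out and a threshold of 0.01. Depth per library limits precision. Members and lists were chosen with earlier results of these data known. Named genes were the members, FLI1, up to 4 called genes of each list (otherwise the 1 with the smallest adjusted p) and the 5 genes most like the member with the smallest p. Some genes this rule selects may not be reported here.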

Additional observations from a re-analysis of the deposited data

How the results depend on the processing

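Of 112 fold changes of the 7 tested members under 16 alternatives, 108 kept their direction and stayed uncalled. The EGR2 call with no filter was the 1 member called. JUN turned to −0.15 without siControl replicate 1 and to −0.012 without that library and siFLI1 replicate 3, and FOSL1 to 0.11 in the last fit. JUN over JUNB turned to −0.014 without siControl replicate 1. The cause was not tested. Without 1 library the fold change of JUN ran from −0.15 to 0.73 and that of FOSL1 from −0.47 to −0.03. Without 1 library the differences ran from 0.71 to 1.22 for FOS over FOSL1, −0.014 to 1.78 for JUN over JUNB, 0.81 to 2.72 for JUN over JUND and 0.41 to 1.25 for JUNB over JUND, and the members called stayed at 0.

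Over all genes, 137 were called, 126 higher and 11 lower. No filter on low counts called 368 (306 higher, 62 lower), DESeq2 217 (34 lower) and a threshold of 0.01 72 (71 higher, 1 lower). Lower genes numbered 17 under total counts, which moved the median log2 fold change of all genes to −0.12, 31 in limma-voom with library weights and 32 of 193 without siFLI1 replicate 3 and siControl replicate 1, with 161 higher. Without 1 library, 65 to 126 were called, 64 to 121 higher and 1 to 7 lower.

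Samples share only a replicate number. Same-numbered libraries had deviations that correlated at −0.0255, −0.0122 and −0.0472 over 9420 genes, and 0 of 3 siFLI1 libraries correlated best with its own number. With the replicate block 101 genes were called, 99 higher and 2 lower, with 0 members.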

Other observations

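Among the listed genes, ID3, an inhibitor of basic helix-loop-helix factors, shared the low value that JUN had in siControl replicate 1, and is named after its values were seen. ID3 was at 6095, 6678 and 5963 CPM in the siFLI1 libraries, and at 1368, 5761 and 5384 CPM in the siControl libraries. Its log2 fold change was 0.58 ± 0.46 (SE), and it did not pass (edgeR adjusted p = 0.729).

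Among the metalloproteinase genes listed as AP-1 targets, MMP9, the gelatinase B gene, was at 67.7, 112 and 21.4 CPM in the siFLI1 libraries, and at 198, 122 and 107 CPM in the siControl libraries. MMP2, the gelatinase A gene, was at 71.0, 81.0 and 112 CPM in the siFLI1 libraries, and at 51.7, 44.5 and 22.2 CPM in the siControl libraries. Neither passed in edgeR (adjusted p = 0.403 and 0.181), and both are named after their values were seen.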
